A study of Mus musculus with 18 samples.

Results

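H3K9me3 at genes was compared between wild-type (WT) and Uhrf1 KO mouse embryonic stem cells (mESCs) in 4 of the 18 samples of the study, 2 WT and 2 Uhrf1 KO libraries. A gene was taken as called in a library when a peak of that library fell in its window, which reaches from 5 kb before to 5 kb after the transcripts in the study's own annotation, and its promoter was called when a peak lay within 1 kb of any annotated start. The annotation held 35858 genes, of which 26086 were called in at least 1 of the 4 libraries. A gene was termed lost when it was called in both WT libraries and in neither Uhrf1 KO library, gained in the reverse case and kept when it was called in all 4. Imprinted genes were left out of the genes named here.

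All cells were of the ES-E14TG2a line, grown in serum and LIF and, per the study's methods, carrying an inducible heterochromatin reporter. The knockout was made with CRISPR-Cas9 in clonal lines, and no agent distinguished the groups. The labels describe biological replicates without naming the clone behind each library, so a difference between genotypes cannot be told apart from a difference between clones. The 2 Dhx9 KO libraries of the series, a knockout of the RNA helicase DHX9 in the same reporter cells, are given beside the values as a second genotype. They share the WT libraries as controls, so each comparison is described by its own values.

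UHRF1 recognises hemimethylated CpG after replication and brings the maintenance DNA methyltransferase DNMT1 to it, and its tandem Tudor domain binds methylated H3K9. H3K9me3 itself is laid down by SETDB1 and the SUV39H enzymes, marks heterochromatin and retrotransposons, and in mESCs covers zinc finger gene clusters, germ cell gene promoters and many tissue-specific gene families. At some of these sites it is found together with DNA methylation.

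The guide used for the knockout lies in coding exon 5 of Uhrf1 on the plus strand of mm10, chr17:56312150-56312169, and is shown with its PAM in capitals.
Uhrf1 guide: ggtcatggccaactataacg, PAM TGG
Uhrf1 had no H3K9me3 peak in any of the 6 libraries, so these lists carry no check of the knockout at the targeted gene.

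Sequences are shown under a peak with its middle near a promoter and a peak with its middle in a coding exon. These peaks were present in both WT libraries and in neither Uhrf1 KO library. The sequences are from the plus strand of mm10, with CpG in capitals, because UHRF1 acts at this dinucleotide. Each is the 300-bp stretch with the most CpG within its site, so its CpG count is a maximum. The 400 bp at the middle of the site hold 3 CpG at Nanog and 15 at Zfp275. The first stretch lies near the start of the Nanog peak, at chr6:122705023-122705322, with 9 CpG in 300 bp. The second lies in a coding exon of the zinc finger gene Zfp275, at chrX:73353857-73354156, with 21 CpG in 300 bp, and the bases that encode the Cys-Gly-Lys stretch of successive zinc fingers, TGCGGCAAG, recur there with a spacing of 84 bases.
Nanog: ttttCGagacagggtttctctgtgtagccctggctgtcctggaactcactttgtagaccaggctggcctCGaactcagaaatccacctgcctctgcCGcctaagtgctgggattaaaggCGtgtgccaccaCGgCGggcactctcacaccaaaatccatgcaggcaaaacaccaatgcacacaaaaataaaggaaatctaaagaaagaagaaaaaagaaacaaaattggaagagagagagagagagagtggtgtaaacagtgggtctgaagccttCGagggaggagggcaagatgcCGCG
Zfp275: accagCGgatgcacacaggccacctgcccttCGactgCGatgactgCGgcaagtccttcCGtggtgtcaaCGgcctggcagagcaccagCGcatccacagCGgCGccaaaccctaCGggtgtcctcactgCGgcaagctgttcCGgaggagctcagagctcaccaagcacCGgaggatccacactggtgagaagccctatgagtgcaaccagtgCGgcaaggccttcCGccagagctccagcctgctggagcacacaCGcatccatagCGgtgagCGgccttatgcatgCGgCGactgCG

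The libraries differed in depth. Peaks held 20875020 and 19543177 ChIP reads in WT replicates 1 and 2, and 6703081 and 16966576 in Uhrf1 KO replicates 1 and 2. Called sequence came to 416, 401, 203 and 342 Mb, so Uhrf1 KO replicate 1 was the shallow library. Relative to WT replicate 1, the library sizes derived from the lists were 0.960, 0.439 and 0.830. The background library of the Uhrf1 KO lists also differed from that of the WT lists, with 0.571 and 0.585 of its reads, so genotype, background library and depth cannot be told apart for the absence of a peak. A peak list holds no reads outside peaks: a gene without a peak has no read number, and is written as having no peak. With 2 libraries against 2, an exact two-sided permutation test cannot give a p below 0.333, and calls are therefore described without a p.

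Of 21417 genes called in both WT libraries, 3773 (17.6%) were lost, 12758 were kept, 4594 were called in Uhrf1 KO replicate 2 only and 292 in replicate 1 only. Fewer genes were called in either knockout library, 14274 and 19177, than in the WT libraries, 23248 and 23235. Without Uhrf1 KO replicate 2 the lost genes numbered 8367, and without replicate 1 they numbered 4065. At promoters the share was larger: 2864 of 8497 (33.7%) were lost, 2658 were kept and 2870 were called in Uhrf1 KO replicate 2 only. Loss within a gene did not need the loss of all its peaks, since 4451 of the kept genes (34.9%) held at least 1 region that was called in both WT libraries and in neither knockout library. Conversely, at 438 of the lost genes (11.6%) no single region went from both WT libraries to neither knockout library, and at 127 of these every region in the window was also called in Uhrf1 KO beyond the edge of the window.

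A smaller share of genes was lost where the WT peak was stronger. Where the log2 fold of ChIP over background of the strongest peak, taken as the lower of the WT values, was under 0.75, 2182 of 4776 genes (45.7%) were lost. Between 0.75 and 1 the share was 20.5% of 4294 genes, between 1.5 and 2 it was 3.95% of 3087, and at 3 and over 6 of 319 genes (1.88%) were lost. Uhrf1 KO replicate 1 called 24.6% of the genes in the weakest class and 94.4% in the strongest, and replicate 2 called 52% and 97.2%. The lost genes had a median of 143 and 128 ChIP reads in WT, against 421 and 391 at the kept genes. Of the lost genes, 83.3% were called in Dhx9 KO replicate 1 and 55.9% in replicate 2. In neither Dhx9 KO library were 11.4% of the lost genes called, beside 2.9% of all genes called in both WT libraries. At peaks with the same limits as in WT replicate 1, the Dhx9 KO lists had identical background reads at 100%, and the Uhrf1 KO lists at 0.62% and 0.75%.

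**Figure D1:**
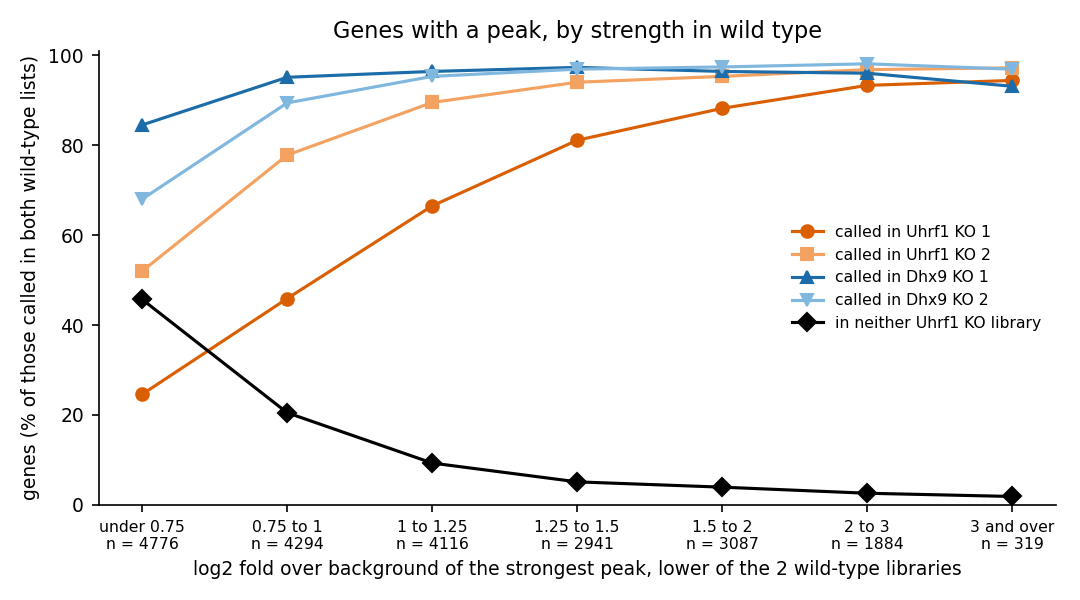
Share of genes called in each knockout library (y axis, % of the genes called in both WT lists) by the log2 fold of the strongest WT peak (x axis, lower of the WT values), with the number of genes under each class. The share in neither Uhrf1 KO library falls from 45.7% to 1.88%, and Uhrf1 KO replicate 1 lies below replicate 2 in each class.

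The lost genes with the most WT reads included broad domains of low log2 fold, as at Plxdc1, Zfpm1, Crtc1 and Gpr179. Others were stronger, such as Ak8 with log2 folds of 1.87 and 1.19 in WT and Polrmt with 2.78 and 2.58. Plxdc1, a plexin-domain receptor, had 3500 and 3361 ChIP reads in WT replicates 1 and 2 and no peak in either Uhrf1 KO library. Nrxn2, a presynaptic adhesion molecule, had 1826 and 1531 reads in WT. It had no peak in Uhrf1 KO within its window, although 1 of its 11 regions was also called in Uhrf1 KO beyond the window. The Dhx9 KO libraries held 1864 and 429 reads in the window.

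Zfpm1, the GATA1 cofactor FOG1, had 1449 and 1491 reads in WT, 499 and 432 in Dhx9 KO and no peak in Uhrf1 KO. Crtc1, a CREB coactivator, had 1332 and 1592 reads in WT and was without a peak in all 4 knockout libraries. Zfpm1 and Crtc1 lie on chromosome 8, which held 10.2% of the called reads of WT replicate 1 and 4.72% of those of Dhx9 KO replicate 1. At the retinal receptor gene Gpr179 the WT reads were 1394 and 1300, at the adenylate kinase gene Ak8 2273 and 1832, at Zfyve28 1767 and 1473 and at Garnl3 1389 and 1251. At Plxdc1 the log2 fold was low, 0.42 and 0.37, and 61364 and 65364 bp of the window were called.

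Among lost genes with at least 100 reads in each WT library, the strongest peaks were at Polrmt, Nanog, Rnf40, Zfp275, Krtap1-4 and Trim3. Polrmt, the mitochondrial RNA polymerase, had log2 folds of 2.78 and 2.58 and 2232 and 2121 reads in WT. The middle of its peak lay in an intron, but the peak, at chr10:79733401-79744600, covered most of the gene. The Dhx9 KO libraries had 1473 and 1490 reads in the window. Nanog, a core pluripotency factor, had 286 and 299 reads and log2 folds of 2.37 and 2.48 in WT. The middle of its peak lay 782 bp before the start, 158 and 164 reads fell in the promoter window, and the Dhx9 KO libraries had 83 reads in replicate 1 and no peak in replicate 2. Trim3, a neuronal ubiquitin ligase, had 635 and 628 reads in WT under a peak with its middle in a coding exon, and 403 and 593 in Dhx9 KO.

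Rnf40, an E3 ligase for histone H2B, had 329 and 300 reads in WT and 418 and 444 in Dhx9 KO. Its peak lay outside the transcripts at the edge of the window, in a region that Uhrf1 KO still called beyond that edge, so this loss depends on where the window ends. Zfp275 had 118 and 138 in WT and 88 and 54 in Dhx9 KO, and the hair keratin-associated gene Krtap1-4 had 132 and 102 in WT and 139 reads and no peak in Dhx9 KO. That none of these genes had a peak in either Uhrf1 KO library is set by the definition of lost. Of the alternatives, 7 used all 4 libraries with other peak filters or windows and could end a call. The loss of Nanog, Trim3, Ak8, Zfp13, Hoxd3 and Sema4a was called under each of these 7, that of Polrmt and Zfp275 under 6 and that of Rnf40 and Krtap1-4 under 5.

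**Figure D2:**
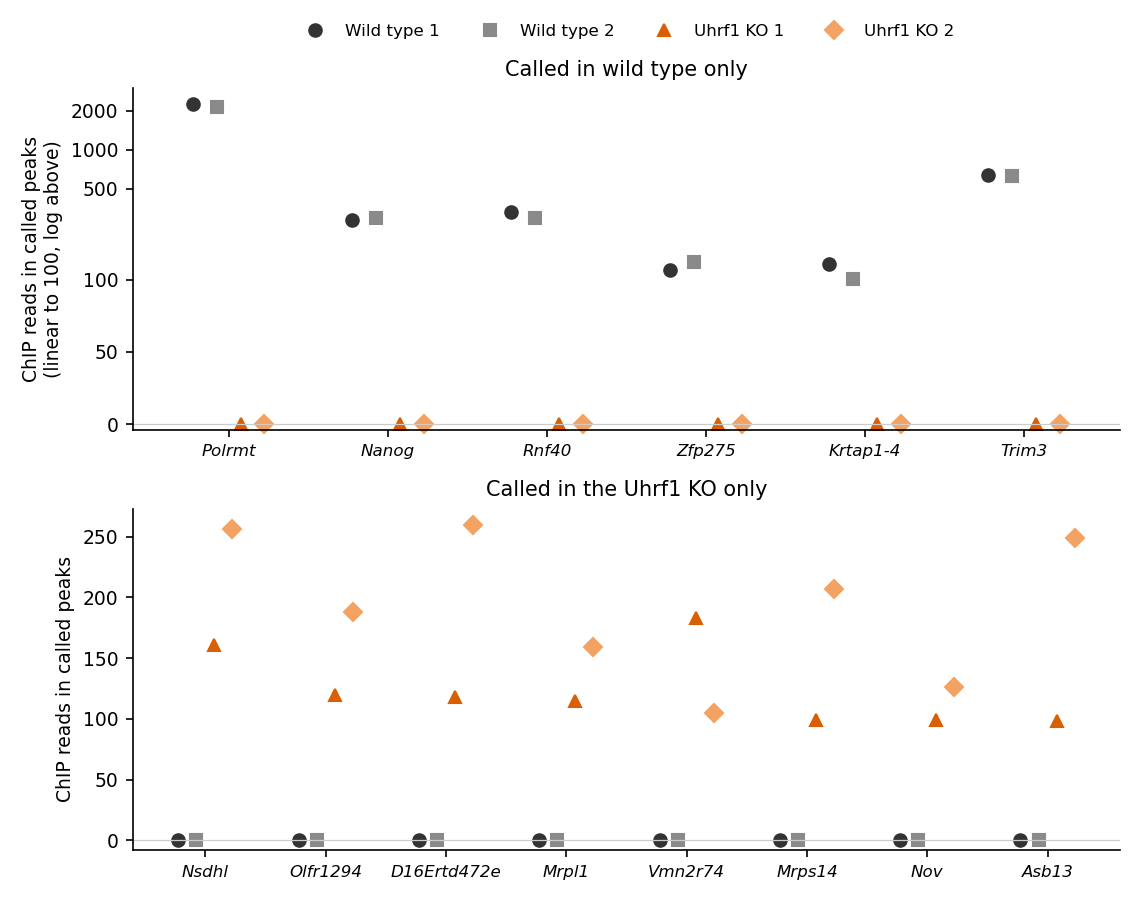
ChIP reads in called peaks (y axis; linear to 100 and log above in the upper panel) in each of the 4 libraries for the 6 lost genes with the strongest WT peaks and the 8 gained genes with the most reads. Points at 0 mark the absence of a peak: Polrmt reaches 2232 reads in WT and 0 in both Uhrf1 KO libraries, and Nsdhl 0 in WT and 161 and 256 in the knockout.

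Gains were fewer: of 13517 genes called in both Uhrf1 KO libraries, 300 (2.22%) had no peak in either WT library, and so had 244 of 3166 promoters (7.71%). Without Uhrf1 KO replicate 1, without replicate 2, and without WT replicate 1 or 2, the gained genes numbered 713, 607, 514 and 545, since only the other library of that genotype then had to meet the condition. Nsdhl, an X-linked enzyme of cholesterol synthesis, had no peak in WT and 161 and 256 reads in Uhrf1 KO, and is the only one of the 8 named gains called under all 7 alternatives that could end a call. In Dhx9 KO it had no peak and 82 reads.

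The mitochondrial ribosome genes Mrpl1 (115 and 159 reads in Uhrf1 KO) and Mrps14 (99 and 207), the matricellular gene Nov (99 and 126) and Asb13 (98 and 249) were also without a peak in WT. The region at Mrpl1 was, however, called in WT beyond the window, and so was 1 of the 3 regions at Asb13. The olfactory receptor gene Olfr1294 gained 120 and 188 reads and the pheromone receptor gene Vmn2r74 183 and 105. At Olfr1294 1 of 3 regions and at Vmn2r74 1 of 4 was also called in WT beyond the window. Of the 8, 5 were called in both Dhx9 KO libraries as well. Over all 300 gained genes, 40% were called in Dhx9 KO replicate 1 and 68.7% in replicate 2. The 5 included Mrps14 with 144 and 151 reads, Asb13 with 155 and 112 and Olfr1294 with 31 and 81. They also included Vmn2r74 with 54 and 53 and D16Ertd472e with 145 and 133. Gained promoters with the most reads belonged to Hes3, a transcriptional repressor of the Hes family (116 and 78 reads), the pheromone genes Esp3 (68 and 99) and Mup9 (63 and 71), and the securin gene Pttg1 (58 and 110). At Hes3 the gained promoter peak stood beside a lost one, as its strongest WT site was absent from both Uhrf1 KO libraries.

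The promoters that were lost with the most reads included several within kept genes. Adgrg1, an adhesion receptor, had 499 and 354 promoter reads in WT and no promoter peak in Uhrf1 KO, while its window kept 88 and 519 reads. Cbfa2t3, a corepressor of blood cells, had 383 and 310 promoter reads, and the ciliary rootlet gene Crocc2 had 346 and 334. Pnpla1, a lipase-family gene of skin, had the strongest of these peaks, with promoter log2 folds of 2.04 and 2.01 and 226 and 271 reads. Rusc2 (285 and 259 reads) and the chemokine gene Ccl17 (285 and 216) lost both the promoter and the gene window, although the region at Ccl17 was still called in Uhrf1 KO beyond the window.

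The pluripotency genes, the defining markers of mESCs, were mostly without H3K9me3 in WT, and the lists measure no RNA with which to check the cell type itself. Of 20 such genes, 4 were called in both WT libraries (20%, beside 59.7% of all genes). Of these 4, Nanog was lost (25%, beside 17.6% of all genes) and Esrrb was kept. Tcl1 and Tfcp2l1 were called in Uhrf1 KO replicate 2 only. Esrrb, an orphan nuclear receptor of naive mESCs, had 3436 and 3425 reads in WT and 63 and 1050 in Uhrf1 KO, with 203 and 149 against 28 and 69 in its promoter. Pou5f1, Sox2, Klf2, Klf5 and Zfp42 had no peak in any of the 6 libraries.

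Among the factors of DNA methylation themselves, 11 were called in both WT libraries, of which 6 were kept and 2 were lost (18.2%, beside 17.6% of all genes). Dnmt3l, the catalytically inactive partner of the de novo methyltransferases, had 285 and 128 reads in WT, 265 and 125 in Dhx9 KO and no peak in Uhrf1 KO. Tet2, which oxidises 5-methylcytosine, had 90 and 82 reads in WT, in different regions in the 2 libraries, and no peak in the 4 knockout libraries. Both losses were called in 3 of the 7 alternatives that could end a call. Dnmt3a, a de novo methyltransferase, was kept with 1734 and 1330 reads in WT and 117 and 372 in Uhrf1 KO, but its promoter peak of 98 and 86 reads was lost.

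Tet3 went from 1534 and 1454 reads to 39 and 688, and the DNA ligase gene Lig1 from 879 and 702 to 134 and 465. The methyl-CpG binding gene Mbd1 gained a promoter peak, with no peak in WT and 37 and 248 reads in Uhrf1 KO. Dnmt1, Dnmt3b, Tet1, Hells and Pcna had no peak in WT or Uhrf1 KO. These reads are raw, not divided by the library size, which was 0.439 in Uhrf1 KO replicate 1.

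Of 26 genes for H3K9 methylation and heterochromatin factors, 7 (26.9%) were called in both WT libraries, beside 59.7% of all genes. Of these, 5 were kept and 0 were lost, beside 17.6% of all genes lost. Kdm4b and Wiz were called in Uhrf1 KO replicate 2 only. The H3K9 demethylase gene Kdm4b had 1448 and 1411 reads in WT, no peak in Uhrf1 KO replicate 1 and 63 reads in replicate 2, while Wiz, a partner of the G9a methyltransferase, had 354 and 361 in WT, no peak and 55. The HUSH complex gene Fam208a was gained, at 38 and 71 reads. Setdb1, Suv39h1, Suv39h2, Trim28 and Cbx5 had no peak in any library.

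Of the 2-cell-stage genes, which mESCs express in a rare totipotent-like state, 25 were called in both WT libraries, 17 were kept and 4 were lost (16%, beside 17.6% of all genes). Lost were Tmem92 (289 and 240 reads in WT), Zfp809 (190 and 132), which encodes a zinc finger repressor of retroviruses, Usp17ld (100 and 81) and Duxbl1 (42 and 38). Zscan4c was gained, with 41 and 53 reads in Uhrf1 KO, which lay in different regions in the 2 libraries. In the same cluster Zscan4a had 42 and 49 reads in WT against 179 and 158 in Uhrf1 KO, and Zscan4d 139 and 67 against 212 and 155. These reads are raw. The size of Uhrf1 KO replicate 2 relative to WT replicate 1 was 0.830 as derived from the lists and 1.138 in the read-count test. Zscan4a had no peak and 68 reads in Dhx9 KO. The Zscan4 genes are near-identical copies, so reads could be placed at the wrong copy, and these values are uncertain for each single gene.

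Germ cell genes that are known to be silenced by DNA methylation mostly kept their promoter peaks. Of 40 such promoters called in both WT libraries, 27 were kept and 3 were lost, Smc1b, Sohlh2 and Stag3, against 31.3% kept and 33.7% lost over all promoters. Dazl, an RNA-binding protein of germ cells, had 125 and 149 promoter reads in WT and 40 and 120 in Uhrf1 KO. Ddx4, the germ cell helicase VASA, had 81 and 99 against 42 and 123, the meiotic gene Mei1 229 and 274 against 24 and 138, and the synaptonemal complex gene Sycp1 112 and 113 against 69 and 221.

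At the 27 kept germ cell promoters, reads divided by library size gave a median log2 difference from the WT mean of -0.12 in Uhrf1 KO replicate 1 and 0.43 in replicate 2, and at all 2658 kept promoters it was -0.17 and 0.26. These sizes were derived from the lists. With the effective sizes of the read-count test, in which Uhrf1 KO replicate 2 counts as 1.138 of WT replicate 1, the medians were -0.31 and -0.042 at the germ cell promoters and -0.36 and -0.21 at all kept promoters, so the sign in replicate 2 depends on the scaling. The meiotic genes Sycp3 and Asz1 gained a promoter peak, with 33 and 116 reads and 29 and 51 reads in Uhrf1 KO. The cohesin gene Stag3 had 78 and 69 reads in WT and no peak in Uhrf1 KO. Set beside promoters of like strength, with a WT log2 fold between 1 and 1.5, 2 of 18 were lost beside 16.8% of all promoters in that class, and at 1.5 and over 0 of 9 beside 11.5%. Of the germ cell promoters with a RefSeq sequence, 64.9% held at least 15 CpG in 300 bp, beside 37.2% of all promoters, 24.7% of lost ones and 15.6% of kept ones.

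The clustered protocadherins, neuronal adhesion proteins each transcribed from its own promoter, had the largest share of lost promoters among the families plotted. Of 28 protocadherin promoters called in both WT libraries, 18 (64.3%) were lost and 7 were kept. The loss was uneven over the 3 clusters. In the gamma cluster 18 of 22 promoters were called in WT replicate 1 and 14 in replicate 2, 13 of them in both, and 0 were called in either Uhrf1 KO library, while the Dhx9 KO libraries called 12 and 3. Pcdhgb4 had 110 and 76 promoter reads in WT and Pcdhgb7 66 and 85. In the beta cluster 3 of 4 promoters were lost.

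In the alpha cluster 11 promoters were called in both WT libraries, 7 were called in both Uhrf1 KO libraries and 2 were lost, 1 of them that of Pcdhac2, which had 165 and 151 reads in its window. With a WT log2 fold between 1 and 1.5, 10 of 11 protocadherin promoters were lost, beside 16.8% of all promoters of that strength. At a fold of 1.5 and over 2 of 10 were lost and 7 were kept, beside 11.5% lost and 72.1% kept of all promoters. The gene windows of a cluster overlap and share peaks, so they are not independent: 14 of 52 gene windows were lost, and this share ranged from 8.62% to 57.9% over the alternatives, above that of all genes in 7 of 11.

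**Figure D3:**
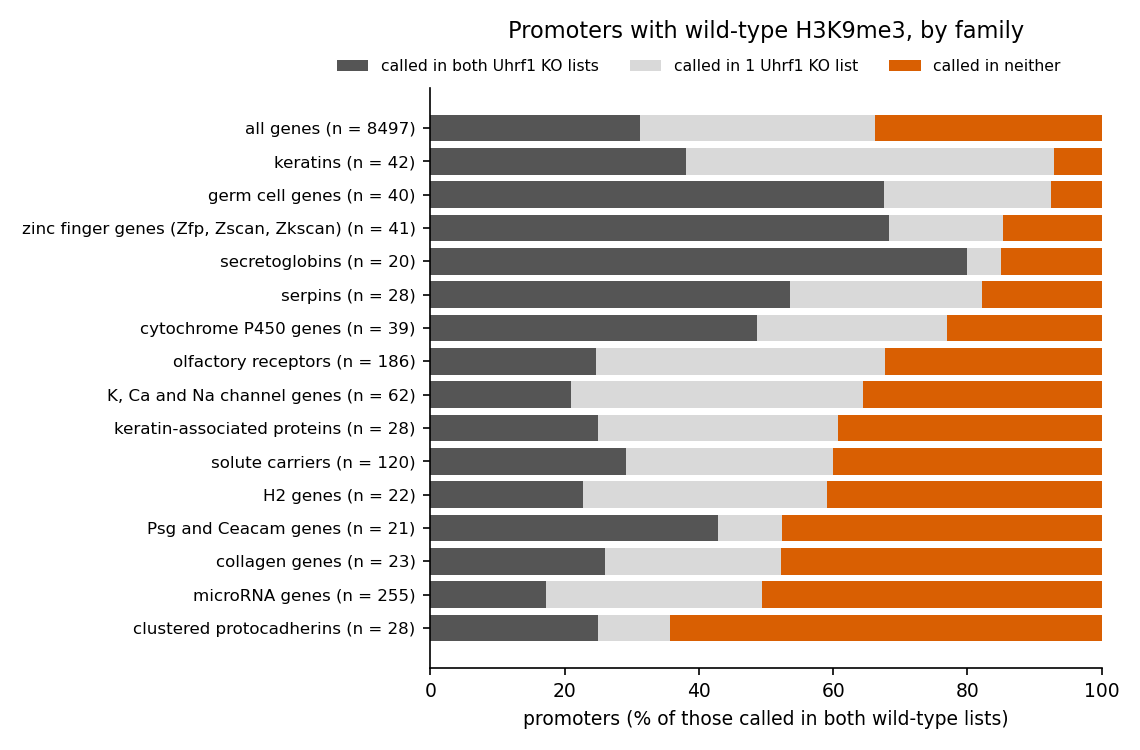
Promoters called in both WT lists (x axis, % of the n given beside each family) that were called in both Uhrf1 KO lists, in 1 of them or in neither, for all genes and 15 gene families ordered by the share lost. The share lost is lowest for keratins, 3 of 42, and highest for clustered protocadherins, 18 of 28.

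Other families were set against the 17.6% of gene windows and 33.7% of promoters lost over all genes. Zinc finger genes lost 48 of 254 gene windows and 6 of 41 promoters (14.6%), and 28 of those promoters (68.3%) were kept. The median WT log2 fold of these promoters was 1.07, beside 0.847 over all promoters. Of all promoters with a fold between 1 and 1.5, 16.8% were lost and 48.2% were kept. The zinc finger gene Zfp13 was lost, with 514 and 535 reads in WT under a peak with its middle in a coding exon. Zfp423, a factor of neural and fat cell development on chromosome 8, was kept, with 8866 and 9271 reads over its window in WT and 115 and 1108 in Uhrf1 KO. Of its 17 regions 7 were lost, and so were its promoter peak and its strongest WT site. Olfactory receptors lost 75 of 411 windows and gained 23, which made up 8.01% of those called in both knockout libraries, and the gained share exceeded that of all genes in all 11 alternatives. Vomeronasal type 2 receptors lost 3 of 77 windows (3.9%) and kept 66. Their median WT log2 fold was 1.82, and 3.95% of all genes with a fold between 1.5 and 2 were lost.

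Major urinary protein genes kept 9 of 9 and gained 3, and no Nlrp, Ugt or Klr gene window was lost, of 16, 13 and 21. The median WT log2 fold of these families was 1.48, 1.73, 2.02 and 1.72, beside 1.09 over all genes. Of all genes with a fold between 1.5 and 2, 3.95% were lost, and 2.6% between 2 and 3. That no window was lost is therefore near the share at genes of like strength. Keratin promoters were lost at 3 of 42 and keratin-associated promoters at 11 of 28. Collagen genes kept 35 of 41 windows, with 11 of 23 promoters lost, and ion channel genes kept 88 of 118, with 22 of 62 promoters lost. Cacna1c, a voltage-gated calcium channel, had 16912 and 15507 reads in WT and 2480 and 14272 in Uhrf1 KO.

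MicroRNA genes lost 160 of 424 windows (37.7%), and the share was above that of all genes in the 11 alternatives, between 22.8% and 68.9%. Their median WT log2 fold was 0.83, beside 1.09 over all genes. Of all genes, 45.7% were lost at a fold under 0.75 and 20.5% between 0.75 and 1. No share was taken at like strength for this family. MicroRNAs at imprinted loci were not taken out of it. Hox genes were called in both WT libraries at 10 of 39 (25.6%), beside 59.7% of all genes. Of these 10 windows 5 were lost, those of Hoxb1, Hoxb3, Hoxc12, Hoxd1 and Hoxd3. Hoxd3, a patterning gene, had 366 and 512 reads in WT. H2 genes of antigen presentation lost 10 of 34, with H2-T3 at 602 and 506 reads in WT and no peak in Uhrf1 KO, and H2-Q6 kept at 1527 and 1436 against 484 and 1350.

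Lost sites held less repeat-masked sequence than kept ones. For each gene called in both WT libraries the strongest WT site was taken. Over 19412 distinct sites, a 400-bp window at the middle was at least 50% repeat-masked at 13.8% of lost sites, 42.8% of kept sites and 26.4% of all sites. At a WT log2 fold of 2 and over, the shares were 32.1% of 134 lost sites and 69.5% of 1507 kept sites. Read the other way, at a fold of 1.5 and over 18% of the 902 sites with at most 10% masked sequence were lost, 13.4% of 1211 sites with 10 to 50%, 6.86% of 1224 with 50 to 90% and 2.23% of 1166 with over 90%. The order was the same in the weaker classes, with 54.7% and 34% of the least and the most masked sites lost where the fold was under 1.

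CpG content separated the classes less: the median was 4 CpG in 400 bp at lost sites and 5 at kept sites, with a median GC content of 50.5% and 48.2%. Among sites with a fold of 1.5 and over, the share lost was 12.9% of 659 where the window held 0 or 1 CpG and 5.69% of 369 where it held 16 or more. The binding motif of ZFP57, TGCCGC on either strand, occurred in 5.43% of lost and 6.45% of kept sites, and in 5.71% of all sites. The order of lost and kept sites depended on strength, with 5.21% and 4.35% where the fold was under 1, 5.05% and 5.33% between 1 and 1.5 and 8.76% and 8.27% at 1.5 and over. Polrmt, Trim3, Zfp13 and Zfp275, with 11.2%, 4.75%, 0% and 0% masked bases at their sites, were among the poorly masked ones, and Nanog had 48.8%.

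**Figure D4:**
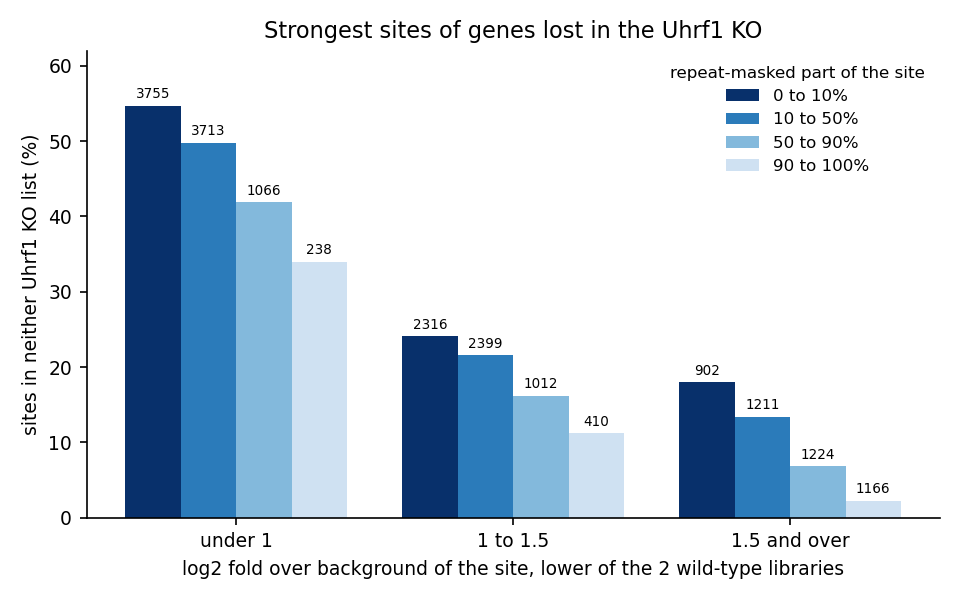
Share of the strongest WT sites of genes that had no peak in either Uhrf1 KO list (y axis, %), by the WT log2 fold of the site (x axis) and its repeat-masked part (bars), with the number of sites above each bar. At a fold of 1.5 and over the share falls from 18% to 2.23% as the masked part rises.

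Chromosomes differed in the share of lost genes, from 8.61% of 976 genes on chromosome 13 to 25.5% of 1476 on chromosome 11 and 23.4% of 582 on chromosome 19, the Y chromosome apart. On chromosome 2, 22.6% of genes were lost although this chromosome held 10.2% of the called reads of Uhrf1 KO replicate 1 against 7.04%, 7.1% and 5.49% in the WT libraries and in Uhrf1 KO replicate 2. On the X chromosome 25 of 204 genes (12.3%) were lost, beside 17.6% of all genes. It held 30 of the 300 gained genes, and no share of its genes called in both Uhrf1 KO libraries was taken. The X chromosome held 1.11% and 1.19% of the called reads in WT and 2% and 2.05% in Uhrf1 KO. Whether copy number differed between the clones was not tested.

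Read numbers could be compared where a region was called in all 4 libraries over at least 80% of its length in each. This left 1064 genes with 894 distinct sets of regions, tested with the edgeR quasi-likelihood test at a false discovery rate (FDR) of 0.05. Reads were lower in Uhrf1 KO at 112 genes (10.5%) and higher at 91 (8.55%), with a median log2 change of 0.00. This balance follows from the normalisation, which assumes that most genes are unchanged. With library sizes derived from the lists, chosen after seeing the data, the median of all genes shifted to 0.34 and 4 genes were lower and 107 higher. With equal library sizes 0 genes passed in either direction, and 1 was lower at an unadjusted p under 0.05.

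The calls also rested on single libraries, with 43 lower and 9 higher genes without WT replicate 1, 35 and 16 without WT replicate 2, 82 and 70 without Uhrf1 KO replicate 1 and 63 and 46 without replicate 2. Regions with fewer reads were short and dense, with a median of 2800 bp and 120 reads per kb in WT, and those with more reads had 6600 bp and 60.1 reads per kb. Over all tested sets these medians were 3550 bp and 64.0 reads per kb.

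The largest decreases were at intronic regions of Cryz, Lrrtm4, Tbc1d5, Slc38a9, Sema3d and Mnat1. Lrrtm4, a synaptic adhesion protein, had 612 and 513 ChIP reads in WT and 124 and 282 in Uhrf1 KO at chr6:80491401-80493200, a log2 change of -1.22 ± 0.15 (SE, edgeR adjusted p = 1.8e-08). Tbc1d5, a Rab GTPase-activating protein, had 452 and 440 against 89 and 267 at chr17:50959601-50961000 (-1.20 ± 0.16, edgeR adjusted p = 1.4e-07). Cryz, a quinone reductase and lens crystallin, had 181 and 226 against 40 and 115 (log2 change -1.28). In units scaled to library size and called length, the knockout values lay below both WT values at each of these genes, as at 343 of the 1064 genes tested (32.2%), and their choice by the test favours this.

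Sema3d, a secreted axon guidance factor, had 260 and 255 reads against 45 and 157 (-1.15), the amino acid transporter gene Slc38a9 136 and 171 against 32 and 77 (-1.17), the CDK-activating kinase subunit gene Mnat1 87 and 71 against 18 and 42 (-1.15) and the phosphate transporter gene Slc34a2 302 and 300 against 67 and 182 (-1.11). Duxf3, an activator of the 2-cell programme, had 12637 and 11131 reads in WT and 2702 and 7253 in Uhrf1 KO, a log2 change of -1.01. The 11 protocadherin alpha genes that could be tested were all lower, but they rest on 3 distinct sets of regions, with log2 changes of -1.11 at Pcdha11, -0.98 at Pcdha9 and Pcdha10 and -0.44 at the others. They stayed below 0 with list-derived sizes, at -0.10 for the median of the 11, where 0 passed the threshold, and 3 of the 11 passed with DESeq2 and without WT replicate 1, WT replicate 2 or Uhrf1 KO replicate 1.

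The intronic regions of Cryz, Lrrtm4, Tbc1d5, Slc38a9, Sema3d and Mnat1 carried tandem repeats, which the test did not use. A stretch from 5 of them is shown from mm10 with the repeated unit in capitals: GGAGCAGGA for Tbc1d5, Sema3d and Mnat1, GCCTGT for Cryz and a 22-base unit for Slc38a9. The stretches lie at chr17:50960251-50960370, chr5:12481202-12481321, chr12:73130941-73131060 (minus strand), chr3:154609995-154610114 and chr13:112724349-112724468, and none of them holds a CpG. Each was picked as the 120 bp with the most copies of its unit, and the units themselves hold no CpG.
Tbc1d5: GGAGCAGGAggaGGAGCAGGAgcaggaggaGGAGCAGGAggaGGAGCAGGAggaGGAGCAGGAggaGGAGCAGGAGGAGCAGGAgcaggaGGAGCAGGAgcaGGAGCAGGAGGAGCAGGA
Sema3d: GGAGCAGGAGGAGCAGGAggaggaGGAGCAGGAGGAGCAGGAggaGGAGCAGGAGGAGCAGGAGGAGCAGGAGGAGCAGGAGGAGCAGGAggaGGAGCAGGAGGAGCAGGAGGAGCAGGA
Mnat1: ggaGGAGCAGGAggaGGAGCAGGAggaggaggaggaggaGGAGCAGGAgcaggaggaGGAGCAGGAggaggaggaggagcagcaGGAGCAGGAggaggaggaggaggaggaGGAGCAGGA
Cryz: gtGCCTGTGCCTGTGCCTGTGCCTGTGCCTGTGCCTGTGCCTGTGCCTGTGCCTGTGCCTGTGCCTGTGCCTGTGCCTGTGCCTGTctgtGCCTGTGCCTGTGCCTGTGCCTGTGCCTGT
Slc38a9: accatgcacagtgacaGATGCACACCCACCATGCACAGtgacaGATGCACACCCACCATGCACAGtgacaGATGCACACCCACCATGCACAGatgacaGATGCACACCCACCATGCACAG
The measure of repetition was chosen after these genes had been seen, and is the share of positions in a region whose 12-base word occurs at least 5 times in it. It was taken on the 807 gene sets that consist of 1 region. At Slc34a2 and Pcdha11, which were also among the 8 largest decreases, this share was 0%. Of 60 regions with at least 25% repeated words, 33 (55%) had fewer reads in Uhrf1 KO and 1 had more, with a median log2 change of -0.57. Of the 747 other regions, 42 (5.62%) had fewer and 61 (8.17%) had more, with a median of 0.02. Without the 6 genes in which repeats were first seen, 27 of 54 regions had fewer reads. List-derived library sizes, which shift all regions by a like amount, gave medians of -0.21 and 0.36, with 3 of the 60 and 0 of the 747 lower and 1 and 77 higher. Without WT replicate 1, WT replicate 2, Uhrf1 KO replicate 1 and Uhrf1 KO replicate 2, 17, 14, 23 and 17 of the 60 were lower, with medians between -0.47 and -0.64.

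Among regions under 2000 bp, 25 of 40 repeated ones were lower and 8 of 142 of the others. The 12 regions with at least 5 copies of GGAGCAGGA on either strand (TCCTGCTCC on the other), 1.49% of all 807, had a median of -0.97, and 10 were lower. The unit was read from Lrrtm4, Tbc1d5, Sema3d and Mnat1, and without these 4 genes 6 of 8 regions were lower, with a median of -0.77. At least 1 copy occurred in 94 regions (11.65%). Repeated regions were poor in CpG, with a median of 3.75 per kb beside 11.8 in the others. Of the 35 regions with under 3 CpG per kb, 21 had fewer reads, but only 2 of the 8 among them that were under 25% repeated.

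Background reads differed as well. Scaled by the size ratio of the background libraries, not as in the read-count test, background reads of the repeated regions had a median log2 change of -0.05. This change was 0.10 in the other regions and -0.28 in the 12 GGAGCAGGA regions. The authors' log2 fold over background, as Uhrf1 KO mean minus WT mean, had a median of -0.14 at the repeated regions. Its median was 0.26 at the others and -0.35 at the 12. This fold is scaled otherwise than the read-count test, so these medians are not the read changes less the background changes. The authors' log2 fold over background at Lrrtm4 was 3.35 and 3.16 in WT, 2.85 and 3.15 in Uhrf1 KO and 2.68 and 2.65 in Dhx9 KO. At Mnat1 these values were 4.02 and 3.78, 2.71 and 3.05, and 2.97 and 3.28, and at Cryz 2.17 and 2.55, 1.16 and 1.64, and 1.99 and 1.34. A read of a tandem repeat can align at several places, and the part of alignment and of copy number in these changes was not tested.

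**Figure D5:**
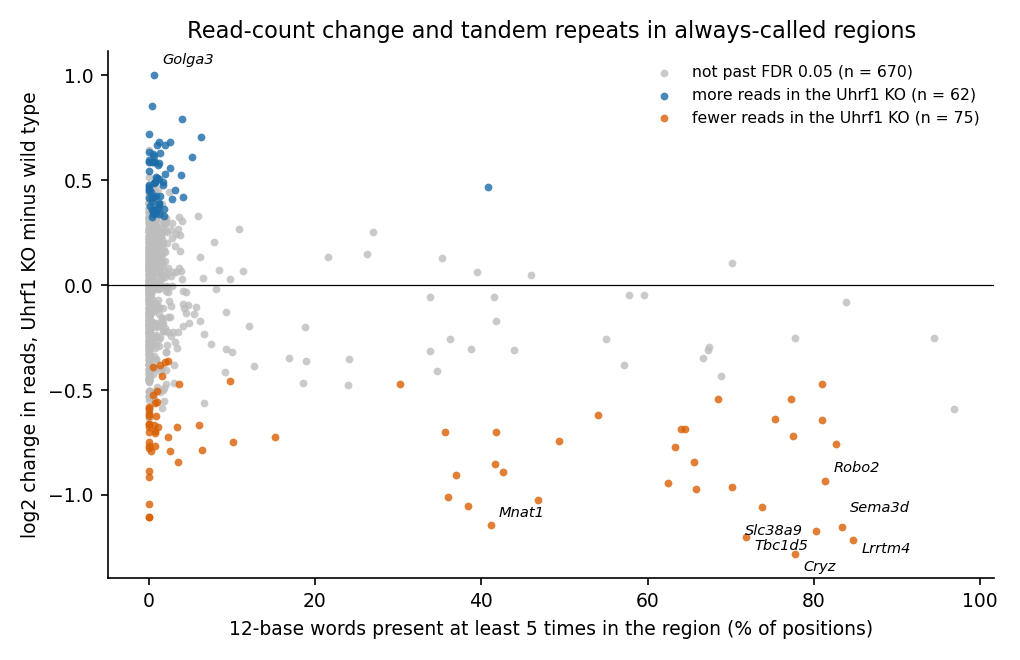
Log2 change in reads between Uhrf1 KO and WT (y axis, edgeR) against the share of repeated 12-base words (x axis, %) for 807 regions called in all 4 libraries, coloured by the call. Of the 60 regions at 25% and over, 33 have fewer reads in Uhrf1 KO and 1 has more.

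The 8 largest increases past the threshold were as follows. Golga3, a Golgi matrix protein, had 210 and 249 reads in WT and 508 and 419 in Uhrf1 KO at chr5:110198201-110204400 after scaling to library size and called length, a log2 change of 1.00 ± 0.15 (SE, edgeR adjusted p = 1.3e-06). In raw reads, the volume-regulated channel gene Lrrc8b had 204 and 162 against 169 and 412 (0.86), the mucosal chemokine gene Ccl28 3227 and 3015 against 2348 and 5158 (0.68) and the Notch coactivator gene Maml3 287 and 324 against 235 and 645 (0.67). Lin7a (0.72), Rgs18 (0.68), Cmc1 (0.63) and the DNA repair helicase gene Ercc3 (0.63) completed the 8.

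All of these increases and the 8 largest decreases kept their direction in every alternative in which the gene could be tested. The increase of Maml3 came closest to 0, at 0.05, and of the decreases that of Cryz, at -0.35. The filter on low counts removed 0 genes, so that 1 alternative repeats the values given. Golga3 passed the threshold in 12 of 14 alternatives and Lrrtm4 in 12 of 14, while Lin7a passed in 6 and Rgs18 in 5 of 13.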

How the data were processed

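The authors aligned H3K9me3 ChIP-seq reads to mm10 with Bowtie2 2.3.4.3, subsampled them with SAMtools and called peaks in each library with epic2 in 200-bp bins, keeping duplicates (the submitters' processing notes list SICER 0.0.51). Each deposited list holds raw read counts for the ChIP and its background at every peak. It also holds a p-value with its FDR and a log2 fold of enrichment, both from the authors' epic2 run, which takes library size into account. The deposited score was not used, and the annotation, which the authors edited to hold the reporter, was shifted back by 2762 bp after its insertion on chromosome 2. The methods name WT input as background, whereas the background counts in the Uhrf1 KO and the WT lists are not the same.

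Peaks were assigned to gene windows and merged with Python 3.11.15, numpy 2.4.6 and pandas 2.3.3, and reads of a peak were shared out by its overlap with a window. Counts over regions called in all 4 libraries were tested by the quasi-likelihood method of edgeR 4.0.16 under R 4.3.3, normalised by TMM, with an offset for called length and Benjamini-Hochberg adjusted p-values. DESeq2 1.42.0 was an alternative. On simulated data for this comparison over 1064 genes, 195 of 200 genes changed 2-fold were recovered with 12 false calls. These counts were drawn independently for each gene, with the same dispersion trend in both genotypes. The recovery therefore does not cover unequal replicate noise, shared regions or the choice of scaling. Groups and replicate numbers came from the labels. Replicates differed by more than sampling noise (chi-square over degrees of freedom of 3.58 in WT and 17.9 in Uhrf1 KO). Intervals and depth cover counting error only.

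The members and gene lists were chosen with earlier results of these data known. Named are the lost and gained genes with the most reads or highest fold, the largest log2 changes past the threshold, promoters by reads, the top lost and kept gene of each family, and lost or gained members of 4 lists; clone, model and RNA names and imprinted genes were left out. Other members of the lists, the Zscan4 genes, the single protocadherins, Mir genes as a family and the tandem repeat measure were added after their values were seen. Sequence and repeat masking come from the mm10 reference, promoter sequences from RefSeq, and the guide from the study's list of guides. 1 gene that the naming rule chose and 1 repeat sequence are not reported here. Imprinted loci count among all genes but were not described here, and inputs and reporter samples were not analysed.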

Additional observations from a re-analysis of the deposited data

How the results depend on the processing

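The absence of a peak depends on depth and on the peak filter, and the test on the scaling. Limiting peaks to a log2 fold of at least 1 gave 1917 lost and 779 gained genes and 992 lost and 386 gained promoters, and equal numbers of peaks per library gave 1643, 909, 992 and 526. With an FDR of at most 1e-10, 3171 genes were lost, of which 955 were among the 3773. Leaving out each library in turn gave 4065 to 8367 lost and 514 to 713 gained genes, 2969 to 5734 lost and 376 to 843 gained promoters, 35 to 82 genes with fewer reads and 9 to 70 with more. In the read-count test DESeq2 gave 58 genes with fewer and 35 with more reads, equal library sizes 0 and 0, all regions called in every library 13 and 4, all 6 libraries in one fit 30 and 8, list-derived sizes, chosen after seeing the data, 4 and 107, and an unadjusted p of 0.05 gave 184 and 171; the cause of these shifts was not tested. The replicate numbers pair no samples (correlation of deviations 0.0999), and a replicate block gave 111 and 79. The other settings for these counts stayed within 1.5 times. Leaving out a library cannot end the call of a lost or gained gene, so only the other settings test those calls. Effective sizes in place of list-derived ones, an alternative chosen once the data had been seen, turned the sign of the level in Uhrf1 KO replicate 2, as a median on the log2 scale, from 0.43 to -0.042 at germ cell promoters and from 0.26 to -0.21 at all kept promoters.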
